A study of Rattus norvegicus with 16 samples.

Results

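Right ventricles of the RVF group were compared with those of the CON group across all measured genes. The comparison took the 4 arrays titled RVF and the 7 arrays titled CON, 11 of the 16 arrays of the series, and was fitted on these groups alone, so that the spread among the 5 RVF+ arrays did not enter. It covered the 17245 genes that had at least 1 probe set paired with exactly 1 gene symbol. The RNA was total RNA from the wall of the right ventricle, taken from male Wistar rats weighing 160 to 180 g, whose age was not given in the sources used here. Rats underwent pulmonary artery banding or a sham operation, and the labels do not give the operation of each sample. CON is the control group of the design text, and the names RVF and RVF+ are not spelled out in the labels and are kept as they stand. The title of the series concerns failure of the right ventricle under long-lasting pressure load. Arrays carry the number of their title, running from CON 1 to CON 7 and from RVF 13 to RVF 16. Nothing in the labels says whether the samples within a group are different animals. The p-values therefore reflect the spread among these samples alone, and that spread may be technical.

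A right ventricle that pumps against a narrowed pulmonary artery thickens its wall and releases natriuretic peptides, hormones that make the kidney excrete salt and water. The heart muscle normally draws most of its energy from fatty acids burned in mitochondria, and relaxes by pumping calcium back into the sarcoplasmic reticulum. Between the muscle cells lie fibroblasts, which lay down collagen, together with vessels and resident macrophages.

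Expression is given as log2 of the deposited intensity, so that 1 unit stands for a doubling. Arrays of the groups lay apart on the first principal component of the 11 arrays, which held 49.1% of the variance, at -21.6 to -12.8 for CON and 25.4 to 34.1 for RVF. CON 4 stood alone on PC2, which held 9.53% of the variance, at -23.7 against -6.90 to 13.2 for the other CON arrays, and RVF 13 lay farthest from CON on PC1. Counts are therefore given below also without CON 4 and RVF 13. The lowest correlation of an array with another of its group was 0.989 to 0.993. Markers of heart muscle cells were present in every array, with 0 of 16 under the median level of all genes (5.57), while all 6 measured markers of lung epithelium lay under it. In bulk tissue, fewer cells of a type and less RNA per cell cannot be told apart.

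RVF right ventricles carried more RNA of natriuretic peptides, stretch-responsive muscle genes, matrix, macrophage and cell cycle genes, and less RNA of fuel oxidation, cardiac ion channel and connexin, and calcium-cycling genes. In all 2440 genes were higher in RVF (14.1% of those tested) and 2026 were lower (11.7%), together 4466 (25.9%), at a limma adjusted p under 0.05. Adjusted p-values here and below are two-sided and Benjamini-Hochberg adjusted over all 17245 genes. Of these, 218 were higher (1.26%) and 129 lower (0.748%) by at least 2-fold. All 4 RVF arrays lay above all 7 CON arrays for 1695 genes (9.83%) and below them for 1552 (9%). The median difference over all genes was -0.0087. With CON 4 and RVF 13 left out, 3858 genes passed (2011 higher, 1847 lower). These included 79.6% of the genes called with all 11 arrays. Among the gene groups described below, leaving out both arrays gave 12 of 22 stretch and Z-disc genes higher, 6 of 19 calcium-cycling genes lower, 16 of 24 ion channels lower, 14 of 19 collagens higher, 11 of 21 collagen-processing genes higher, 15 of 24 matricellular genes higher, 17 of 20 macrophage markers higher and 21 of 30 cell cycle genes higher. For fuel use it gave 18 of 19 ketone and branched-chain amino acid genes, 16 of 22 tricarboxylic acid cycle genes and 27 of 42 respiratory chain genes lower. Centring each array on its median lowered the median of all genes to -0.092 and moved the split to 1755 higher and 3263 lower. A fit to all 16 arrays, in which RVF+ shares the estimate of the spread, called 2957 genes, 1528 higher and 1429 lower.

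**Figure D1:**
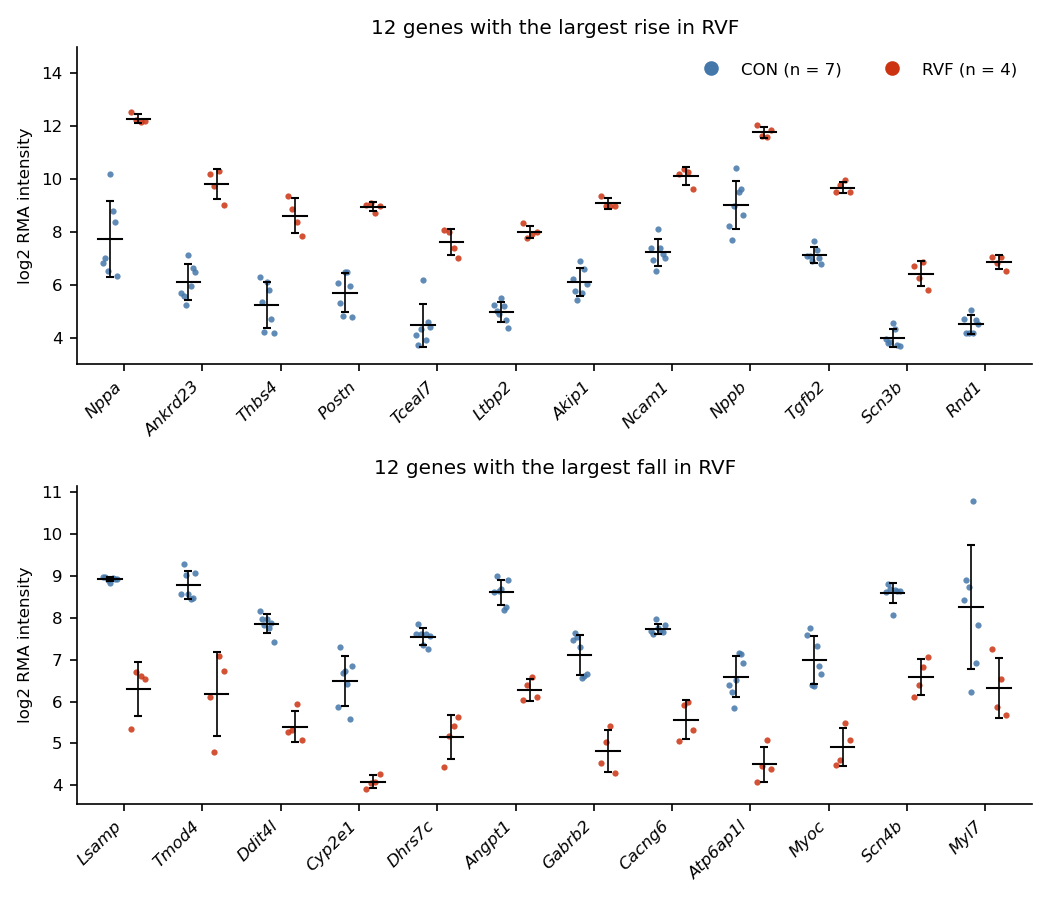
Log2 intensity (vertical axis) of the 12 genes with the largest rise and the 12 with the largest fall in RVF, with 1 point per array, a line at the group mean and bars of 1 SD. The groups are separate in every gene shown except Myl7, whose CON arrays run from 6.22 to 10.79.

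Nppa, which encodes atrial natriuretic peptide, had the largest rise. Its log2 intensity was 12.55, 12.25, 12.17 and 12.21 in RVF 13 to RVF 16, and in CON it ran from 6.35 over a median of 7.03 to 10.20. All RVF arrays lay close together above every CON array, whereas CON spread widely with CON 4 highest. The difference was 4.57 ± 0.60 (log2 difference ± SE, here and below), 23.7-fold (adjusted p = 6.55e-05), and from 4.34 to 4.98 when single arrays were left out. Nppb, which encodes brain natriuretic peptide, was at 12.04, 11.63, 11.60 and 11.85 in RVF and at 7.69 to 10.42 in CON, with a median of 8.99. The groups did not overlap, and Nppb was 6.79-fold higher (2.76 ± 0.39, adjusted p = 0.000122). The clearance receptor gene Npr3, which removes these peptides, was higher by 1.04, and Corin, the protease that activates the Nppa product, was lower by 0.69. Both were chosen after their values were seen. Rcan1, an inhibitor of the phosphatase calcineurin, was 2.17-fold higher (1.12 ± 0.11, adjusted p = 7.25e-06). Of 15 measured natriuretic peptide and fetal cardiac genes 6 were higher and 4 lower (2 lower in the fit to all 16 arrays), with a median of 0.02.

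Stretch-sensing proteins bind the giant spring protein titin or the Z-disc, the anchor of the thin filaments. Ankrd23, an ankyrin repeat protein bound to titin, was at 10.20, 9.75, 10.31 and 9.02 in RVF and at 5.26 to 7.14 in CON, with a median of 5.97. RVF 16 was lowest among the RVF arrays, still above every CON array, and the gene was 13.1-fold higher (3.71 ± 0.33, adjusted p = 3.07e-06). Its relatives Ankrd1 and Ankrd2 were 1.53-fold and 1.84-fold higher (0.62 ± 0.08 and 0.88 ± 0.09), the second call ending in the fit to all 16 arrays (adjusted p = 0.135). Akip1, a partner of protein kinase A, was at 9.38, 8.98, 8.98 and 8.99 in RVF and at 5.45 to 6.92 in CON (median 6.03), 7.89-fold higher (2.98 ± 0.23, adjusted p = 1.03e-06). Xirp2, an actin-binding Xin repeat protein of the intercalated disc, was 2.78-fold higher (1.48 ± 0.13, adjusted p = 2.55e-06). Csrp3, the muscle LIM protein, rose by 0.45 ± 0.07, and Synpo2l, an actin-bundling Z-disc protein, by 0.61 ± 0.10. In all 12 of 22 members, counting Akip1, were higher and 3 lower, with a median of 0.36. Members were listed with earlier results of these data known. The 3 lower members were Fhl2 (-0.48), Ldb3 (-0.48) and Vcl (-0.26), picked after their values were seen, each a protein of the Z-disc or of cell anchoring.

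The promoters of these genes are shown because several of the largest rises shared a short motif, and each sequence is the 250 bases before the RefSeq start of the gene (assembly GRCr8). Capitals mark CATTCC on either strand, the core of the M-CAT element that TEAD factors recognise, and CArG boxes, the element recognised by serum response factor. The Nppb promoter (chr5:163699758-163700007, plus strand) held 1 CATTCC, and that of Ankrd23 (chr9:46274511-46274760, minus strand) held 1.
Nppb: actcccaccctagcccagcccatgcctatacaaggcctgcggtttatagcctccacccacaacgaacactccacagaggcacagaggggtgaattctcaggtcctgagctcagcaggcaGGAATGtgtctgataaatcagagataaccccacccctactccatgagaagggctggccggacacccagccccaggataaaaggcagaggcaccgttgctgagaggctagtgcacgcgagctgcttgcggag
Ankrd23: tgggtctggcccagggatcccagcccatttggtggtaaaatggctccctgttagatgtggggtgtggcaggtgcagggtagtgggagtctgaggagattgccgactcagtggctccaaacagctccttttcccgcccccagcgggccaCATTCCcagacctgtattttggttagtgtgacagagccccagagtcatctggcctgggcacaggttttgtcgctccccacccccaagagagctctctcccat
Among the 12 genes with the largest rise 9 had a promoter entry, and 4 of these held CATTCC (Ankrd23, Thbs4, Tceal7 and Nppb), or 44.4%, beside 12.1% of all 33469 promoters of the same length. Among the 12 largest falls 10 had an entry and 1, Ddit4l, held it. CArG boxes were found in 0 of the 9 and 0 of the 10 (1.5% of all promoters), TGANTCA in 0 and 0 (6.34%), and TATAAA in 3 and 3 (12.9%), each searched on both strands. CATTCC is described because these same genes shared it, so its share beside that of all promoters is not a test of enrichment. The share over all promoters counts every promoter entry, whereas each named gene had 1. A match describes letters in this window and is not a binding site.

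Genes of the sarcomere, the contractile unit, moved in both directions. Acta1, the skeletal muscle actin expressed in the fetal heart, was at 11.65, 11.78, 11.84 and 11.44 in RVF and at 9.13 to 10.04 in CON, with a median of 9.63. The groups were well apart, and Acta1 was 4.35-fold higher (2.12 ± 0.18, adjusted p = 1.87e-06). Its promoter (chr19:68784195-68784444, minus strand), chosen after the values were seen, held 1 CArG box and 1 CATTCC, marked as above.
Acta1: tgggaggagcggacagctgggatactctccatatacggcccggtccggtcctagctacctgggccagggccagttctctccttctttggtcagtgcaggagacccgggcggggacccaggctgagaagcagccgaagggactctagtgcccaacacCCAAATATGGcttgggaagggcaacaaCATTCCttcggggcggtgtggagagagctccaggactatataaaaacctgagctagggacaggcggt
Myh7, the slow myosin heavy chain, was at 12.33, 12.25, 12.38 and 12.10 in RVF and at 11.20 to 11.61 in CON (median 11.44), 1.83-fold higher (0.87 ± 0.09, adjusted p = 9.17e-06). Myh6, the fast-cycling myosin of the adult rodent ventricle, was at 11.39, 11.86, 11.73 and 11.95 in RVF and at 12.44 to 12.57 in CON (median 12.51). Every RVF array lay above CON for Myh7 and below CON for Myh6, which was 1.71-fold lower (-0.78 ± 0.09, adjusted p = 2.59e-05, but 0.0745 in the fit to all 16 arrays). Tmod4, which caps the slow-growing ends of thin filaments, was at 6.12, 4.80, 7.09 and 6.72 in RVF and at 8.45 to 9.28 in CON (median 8.57). RVF values of Tmod4 were spread over more than 2 units, all below CON, and the gene was 6.03-fold lower (-2.59 ± 0.33, adjusted p = 5.24e-05). The tropomyosin Tpm3 was 1.47-fold higher (0.55 ± 0.06), with 0.43 at its second probe set, and the cardiac troponin Tnni3 fell by 0.31 ± 0.06 (adjusted p = 0.000730, but 0.124 in the fit to all 16 arrays). In all 6 of 24 sarcomere genes were higher and 8 lower (2 lower in the fit to all 16 arrays), with a median of -0.10. Core genes such as Actc1 (0.02), Mybpc3 (-0.01), Tnnt2 (-0.06) and Ttn (-0.12) did not pass, as was seen after their values were known.

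**Figure D2:**
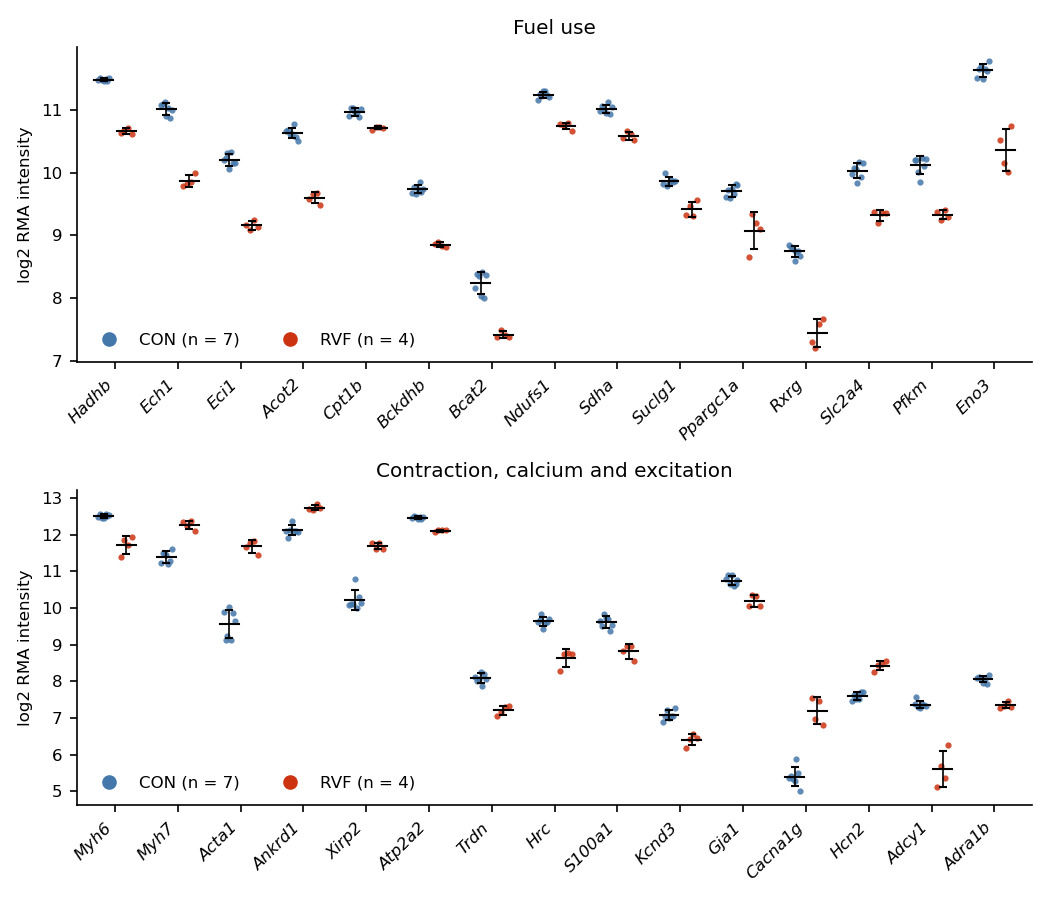
Log2 intensity (vertical axis) of 15 genes of fuel use and 15 genes of contraction, calcium cycling and excitation in CON and RVF, with 1 point per array, a line at the mean and bars of 1 SD. The groups do not overlap in any gene shown, and the distance between them is smallest for genes such as Cpt1b (-0.25) and Atp2a2 (-0.36).

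Calcium-cycling genes were more often lower than higher, 9 of 19 against 2 (1 higher without RVF 15), with a median of -0.10. The lower genes made up 47.4% of the list, beside 11.7% of all genes, and counted Sln, an atrial gene whose call is described below. Hrc, a calcium-binding protein inside the sarcoplasmic reticulum, was at 8.27, 8.75, 8.77 and 8.76 in RVF and at 9.43 to 9.83 in CON (median 9.61), 2.00-fold lower (-1.0 ± 0.10, adjusted p = 8.33e-06). RVF 13 was the lowest of the RVF arrays, and all lay below CON. Trdn, which ties the calcium store to the release channel, was 1.83-fold lower (-0.87 ± 0.08), and S100a1, a calcium sensor that raises pump and channel activity, 1.74-fold lower (-0.80 ± 0.10). Atp2a2, which pumps calcium back into its store, was at 12.06, 12.12, 12.13 and 12.13 in RVF and at 12.41 to 12.52 in CON (median 12.47). The groups were separate by a narrow margin, and the pump was 1.28-fold lower (-0.36 ± 0.06, adjusted p = 0.000289). Its inhibitor Pln (-0.19 ± 0.06, adjusted p = 0.0216) and the release channel Ryr2 (-0.20 ± 0.07, adjusted p = 0.0490) passed narrowly. Both calls ended in the fit to all 16 arrays (0.198 and 0.299) and without RVF 13, and that of Ryr2 in 15 of the alternatives. Such counts of alternatives, here and below, leave out the test against a 1.5-fold minimum, which asks for a larger change and in which these narrow calls ended too. The members that were higher were Atp2b4 (0.32) and Casq1 (0.70), the latter a calsequestrin best known from skeletal muscle, both chosen after their values were seen.

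Cardiac ion channels and connexins fell in 17 of 24 cases and rose in 4, with a median of -0.43, beside 11.7% of all genes lower. Cacng6, a calcium channel gamma subunit, was at 5.06, 5.91, 6.00 and 5.31 in RVF and at 7.62 to 7.97 in CON (median 7.68), 4.50-fold lower (-2.17 ± 0.15, adjusted p = 5.88e-07). Scn4b, a sodium channel beta subunit, was at 6.10, 6.40, 6.82 and 7.05 in RVF and at 8.06 to 8.80 in CON (median 8.65), 3.98-fold lower (-1.99 ± 0.17, adjusted p = 1.99e-06). Neither gene showed any overlap, although CON 4 was the lowest control for Scn4b. Kcnd3 and Kcnd2, pore subunits of the transient outward potassium current, were lower by 0.67 and 1.77, and the connexin Gja1, which couples neighbouring muscle cells, was 1.47-fold lower (-0.55 ± 0.09, adjusted p = 0.000302). The L-type calcium channel Cacna1c was lower by 0.66. The T-type calcium channel Cacna1g, expressed in the fetal ventricle, was at 7.55, 6.98, 7.47 and 6.80 in RVF and at 5.01 to 5.89 in CON (median 5.37), 3.48-fold higher (1.80 ± 0.16, adjusted p = 3.31e-06). The pacemaker channel Hcn2 was 1.77-fold higher (0.83 ± 0.08), and its relative Hcn4 was higher by 0.99. Kcne1, a subunit of the slow delayed rectifier potassium channel, was at 8.19, 6.02, 6.57 and 6.55 in RVF and at 4.39 to 4.98 in CON (median 4.58). RVF 13 was highest, all RVF arrays lay above CON, and Kcne1 was 4.66-fold higher (2.22 ± 0.29, adjusted p = 6.58e-05). Kcnq1, the pore subunit of the same channel, was lower by 0.49. Kcnd2, Cacna1c, Hcn4, Kcne1 and Kcnq1 were named after their values were seen. Scn3b, another sodium channel beta subunit and among the 12 largest rises, was at 6.72, 6.28, 6.87 and 5.83 in RVF and at 3.69 to 4.57 in CON (median 3.86). It lay above CON in every RVF array and was 5.40-fold higher (2.43 ± 0.20, adjusted p = 1.69e-06).

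Adrenergic and cyclic nucleotide genes relay or end the signal of noradrenaline. Of 27 members 14 were lower (51.9%, beside 11.7% of all genes) and 7 higher (25.9%, beside 14.1%), with a median of -0.21. The adenylyl cyclase Adcy1 was at 5.11, 5.69, 5.36 and 6.25 in RVF and at 7.28 to 7.56 in CON (median 7.35), 3.39-fold lower (-1.76 ± 0.16, adjusted p = 3.36e-06), with RVF 16 nearest to CON. Another cyclase, Adcy7, went the other way and was 2.19-fold higher (1.13 ± 0.09, adjusted p = 1.62e-06). The alpha-adrenergic receptor Adra1b was 1.64-fold lower (-0.72 ± 0.07) and the phosphatase inhibitor Ppp1r1a 1.77-fold lower (-0.83 ± 0.09). Adrb1, the main beta-adrenergic receptor of the heart, fell by 0.34 ± 0.09 (adjusted p = 0.0127), with 2 of 4 RVF arrays below all CON arrays, and the call ended without RVF 15. The phosphodiesterase Pde5a had 0.15 ± 0.10 and did not pass (adjusted p = 0.304). Other phosphodiesterases, which break down cyclic nucleotides, moved both ways. Pde3a (-0.74), Pde1c (-0.64), Pde4b (-0.51) and Pde4d (-0.41) were lower. Pde3b (0.56), Pde10a (0.45) and Pde1a (0.44) were higher, and Pde2a (-0.16) and Pde9a (-0.09) did not pass. These others were named after their values were seen.

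Every measured gene of fatty acid uptake and oxidation was lower in RVF, 27 of 27, with a median of -0.72 and a range from -1.37 to -0.25. In the fit to all 16 arrays 24 passed, and without CON 4 and RVF 13 the count of lower genes was 27. Hadhb, a subunit of the mitochondrial trifunctional protein, was at 10.63, 10.69, 10.71 and 10.61 in RVF and at 11.46 to 11.50 in CON (median 11.48). Spread within each group was small beside the gap, and Hadhb was 1.77-fold lower (-0.82 ± 0.05, adjusted p = 4.60e-07). Ech1, an isomerase that prepares unsaturated fatty acids for oxidation, was at 9.79, 9.81, 9.85 and 10.00 in RVF and at 10.87 to 11.13 in CON (median 11.03), 2.22-fold lower (-1.15 ± 0.07, adjusted p = 3.14e-07). A second isomerase, Eci1, was 2.06-fold lower (-1.04 ± 0.07), and the thioesterase Acot2 2.04-fold lower (-1.03 ± 0.07). Cpt1b, the muscle carnitine palmitoyltransferase that admits fatty acids to mitochondria, changed less. It was at 10.68, 10.73, 10.73 and 10.71 in RVF and at 10.88 to 11.03 in CON (median 10.96), below CON in every array by a small step. Cpt1b was 1.19-fold lower (-0.25 ± 0.06, adjusted p = 0.00528), a call that ended in the fit to all 16 arrays (0.207).

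Enzymes that break down ketone bodies and branched-chain amino acids fell in 18 of 19 cases, with a median of -0.59 and 0 higher. Bckdhb, part of the branched-chain ketoacid dehydrogenase, was at 8.86, 8.90, 8.83 and 8.81 in RVF and at 9.66 to 9.85 in CON (median 9.73), 1.84-fold lower (-0.88 ± 0.06, adjusted p = 5.25e-07). Every RVF array lay below every CON array. The transaminase Bcat2 was 1.78-fold lower, the dehydrogenase Acadsb 1.67-fold and the propionyl-CoA carboxylase subunit Pccb 1.74-fold. Bdh1, which oxidises the ketone body beta-hydroxybutyrate, was the member that did not pass (0.20), named after its value was seen.

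Steps nearer to ATP changed by smaller amounts. In pyruvate oxidation and the tricarboxylic acid cycle 18 of 22 genes were lower and 0 higher, with a median of -0.30, but 6 were lower in the fit to all 16 arrays. Suclg1 and Suclg2, subunits of succinyl-CoA ligase, were lower by 0.45 and 0.48, and Sdha, which links the cycle to the respiratory chain, by 0.43. Sdha was at 10.55, 10.67, 10.61 and 10.51 in RVF and at 10.94 to 11.12 in CON (median 11.02), without overlap (1.35-fold lower, adjusted p = 0.000159). The 18 lower genes count Pdk4, a kinase that shuts off pyruvate oxidation. It had the largest fall of the list and was 1.54-fold lower (-0.62 ± 0.13, adjusted p = 0.00320). Of 42 respiratory chain and ATP synthase genes 30 were lower and 0 higher, with a median of -0.27, but 7 were lower in the fit to all 16 arrays. Ndufs1, a subunit of complex I, was at 10.77, 10.74, 10.79 and 10.66 in RVF and at 11.16 to 11.29 in CON (median 11.23), and was 1.41-fold lower (-0.49 ± 0.06, adjusted p = 3.04e-05). The other members with the smallest p were Ndufs3 (-0.40), Atp5mc3 (-0.39) and Ndufs7 (-0.44), of which the calls of Ndufs3 and Atp5mc3 ended in the fit to all 16 arrays (adjusted p = 0.117 and 0.0682).

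Regulators of these pathways were lower in 13 of 19 cases and higher in 1, with a median of -0.29 (6 lower in the fit to all 16 arrays). Rxrg, a retinoid X receptor, was at 7.31, 7.20, 7.59 and 7.67 in RVF and at 8.60 to 8.85 in CON (median 8.74), 2.47-fold lower (-1.30 ± 0.09, adjusted p = 5.88e-07). Ppargc1a, a coactivator of mitochondrial genes, was at 8.66, 9.35, 9.19 and 9.10 in RVF and at 9.59 to 9.82 in CON (median 9.73). RVF 13 was lowest, and all RVF arrays lay below CON (1.55-fold lower, -0.63 ± 0.11, adjusted p = 0.000553, but 0.0533 in the fit to all 16 arrays). Perm1, a muscle regulator induced by this coactivator, was 1.51-fold lower, also a call that ended in that fit (0.106), and Rxra was 1.38-fold lower. The member that was higher was Polg, the mitochondrial DNA polymerase (0.31), named after its value was seen.

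Glycolysis and glucose uptake was divided, 8 of 26 being lower and 5 higher, with a median of -0.06. The muscle forms Eno3 (enolase, -1.27 ± 0.12, 2.41-fold), Pfkm (phosphofructokinase, -0.79 ± 0.08) and Pgam2 (phosphoglycerate mutase, -0.69 ± 0.07) were lower, as was the insulin-responsive transporter Slc2a4 (-0.71 ± 0.08). Eno3 was at 10.52, 10.15, 10.01 and 10.75 in RVF and at 11.49 to 11.77 in CON (median 11.65), all below CON (adjusted p = 4.76e-06). The higher members were the platelet-type and liver-type phosphofructokinases Pfkp (0.90) and Pfkl (0.38), the lactate exporter Slc16a3 (1.02), the branching enzyme Gbe1 (0.29) and the basal transporter Slc2a1 (0.42). These 5 were named after their values were seen, and 3 were higher without RVF 13 and 3 after centring. In the fit to all 16 arrays 5 members were lower.

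**Figure D3:**
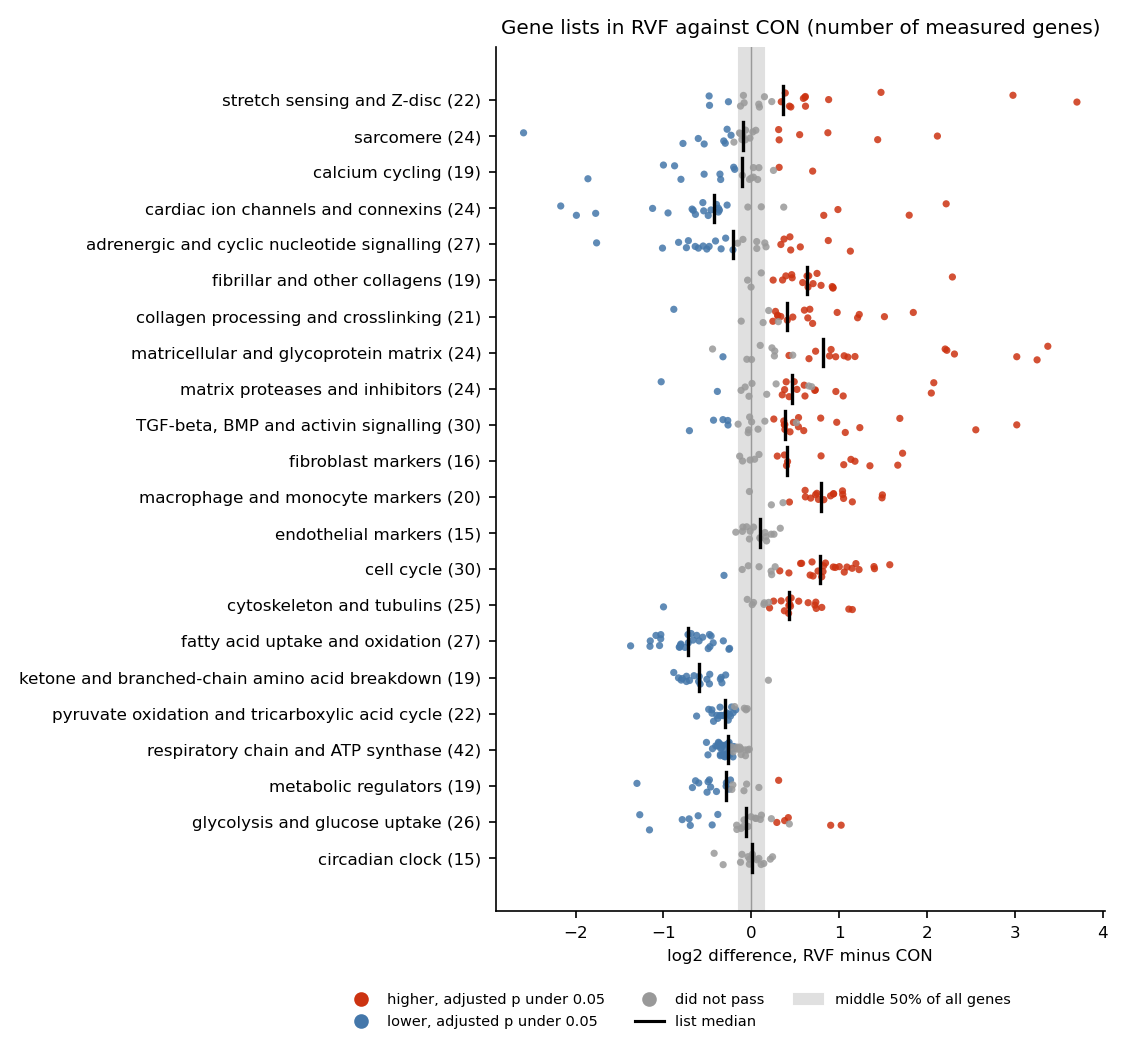
Log2 difference of RVF from CON (horizontal axis) for each measured gene of 22 gene lists, with red and blue points for genes at a limma adjusted p under 0.05, grey points for the others, a black line at the list median and a grey band for the middle 50% of all genes. Medians ran from -0.72 for fatty acid uptake and oxidation to 0.81 for matricellular and glycoprotein matrix genes.

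Collagens were higher in 16 of 19 cases and lower in 0, with a median of 0.64, beside 14.1% of all genes higher. Col8a1, a short-chain network collagen, was at 8.45, 8.38, 8.32 and 8.88 in RVF and at 5.83 to 6.65 in CON (median 6.24), 4.89-fold higher (2.29 ± 0.15, adjusted p = 4.07e-07). The main fibrillar collagens changed less. Col1a1 was at 9.22, 9.41, 9.08 and 9.21 in RVF and at 7.99 to 8.86 in CON (median 8.45), 1.73-fold higher (0.79 ± 0.14, adjusted p = 0.000850), and Col3a1 was 1.91-fold higher (0.93 ± 0.12). Col8a1 and Col1a1 did not overlap between the groups. Col4a1 of basement membranes (0.70 ± 0.08), Col14a1 (0.92 ± 0.10) and Col5a2 (0.65 ± 0.07) also rose. Of 21 genes that process and crosslink collagen 16 were higher and 1 lower, with a median of 0.41 (10 higher in the fit to all 16 arrays). The lysyl oxidase relative Loxl1 was at 8.81, 9.35, 9.03 and 9.09 in RVF and at 6.93 to 7.54 in CON (median 7.15), 3.59-fold higher (1.85 ± 0.12, adjusted p = 3.31e-07). Loxl2 was 2.35-fold higher, the lysyl hydroxylase Plod2 2.86-fold and the transglutaminase Tgm2 2.31-fold. The lower member was the procollagen protease Adamts3 (-0.88), named after its value was seen.

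Matricellular and glycoprotein matrix genes, which tune how cells attach, were higher in 15 of 24 cases and lower in 1, with a median of 0.81. Thbs4, a thrombospondin, was at 9.38, 8.87, 8.39 and 7.84 in RVF and at 4.19 to 6.30 in CON (median 5.34), 10.4-fold higher (3.38 ± 0.42, adjusted p = 4.16e-05). RVF arrays were spread over more than 1 unit, and the lowest still lay above CON. Postn, periostin, was at 9.04, 9.09, 8.74 and 9.00 in RVF and at 4.79 to 6.51 in CON (median 5.97), 9.54-fold higher (3.25 ± 0.31, adjusted p = 5.01e-06). Ltbp2, a latent TGF-beta binding protein of microfibrils, was at 8.33, 7.80, 7.93 and 7.99 in RVF and at 4.38 to 5.53 in CON (median 5.01), 8.13-fold higher (3.02 ± 0.18, adjusted p = 2.45e-07). Every RVF array lay above every CON array for Ltbp2. Ccn2, connective tissue growth factor, was at 9.74, 9.41, 9.58 and 9.83 in RVF and at 6.87 to 7.69 in CON (median 7.40), 4.97-fold higher without overlap (2.31 ± 0.13, adjusted p = 2.45e-07). Its promoter (chr1:22624615-22624864, minus strand), chosen after the values were seen, held 3 copies of CATTCC and 0 CArG boxes, with capitals as above.
Ccn2: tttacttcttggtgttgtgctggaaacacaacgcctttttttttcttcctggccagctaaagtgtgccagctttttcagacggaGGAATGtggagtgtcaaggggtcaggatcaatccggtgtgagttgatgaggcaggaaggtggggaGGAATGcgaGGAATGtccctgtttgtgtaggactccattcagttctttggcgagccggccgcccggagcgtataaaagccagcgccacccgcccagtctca
Cilp, a secreted protein of cartilage and of fibrotic heart, was 4.68-fold higher (2.23 ± 0.17, adjusted p = 1.13e-06), with RVF 16 lowest at 6.33 and CON at 4.57 to 5.12. Fibronectin (Fn1) was 2.14-fold higher (1.10 ± 0.08). The lower member was Ltbp1 (-0.32), and the related Ccn1 did not pass (-0.05), both named after their values were seen.

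Among small leucine-rich proteoglycans 4 of 10 were higher and 0 lower, with a median of 0.12. Biglycan (Bgn) was at 11.56, 11.61, 11.43 and 11.54 in RVF and at 9.99 to 10.38 in CON (median 10.21), 2.54-fold higher without overlap (1.34 ± 0.09, adjusted p = 3.29e-07). Prelp was 1.80-fold higher and Aspn 1.45-fold, the latter with 0.073 at its dimmer second probe set. Lum had 0.41 ± 0.13 (adjusted p = 0.0262), a call that ended in 4 alternatives, among them leaving out RVF 14 or RVF 16. Matrix proteases and their inhibitors were higher in 14 of 24 cases and lower in 2, with a median of 0.46 (9 higher in the fit to all 16 arrays). For 11 of the 24 both group means lay under 5.57, the median level of all genes. The protease inhibitor Timp1 was at 9.90, 10.15, 9.75 and 9.94 in RVF and at 7.45 to 8.34 in CON (median 7.89), 4.22-fold higher (2.08 ± 0.15, adjusted p = 6.68e-07). Timp4, the inhibitor best known from the heart, was lower (-1.03), as seen after its value was known. Serpine2, an inhibitor of thrombin and urokinase, was 4.14-fold higher (2.05 ± 0.16), the urokinase receptor Plaur 1.65-fold, and the macrophage elastase Mmp12 2.07-fold (1.05 ± 0.09, but adjusted p = 0.0516 in the fit to all 16 arrays).

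TGF-beta, BMP and activin genes, which instruct fibroblasts, were higher in 17 of 30 cases and lower in 5, with a median of 0.38. Tgfb2 was at 9.51, 9.77, 9.97 and 9.50 in RVF and at 6.80 to 7.68 in CON (median 7.08), 5.88-fold higher (2.56 ± 0.15, adjusted p = 2.45e-07). Tgfb1 was at 7.91, 7.82, 7.85 and 7.93 in RVF and at 6.89 to 7.18 in CON (median 7.14), 1.73-fold higher (0.79 ± 0.07, adjusted p = 2.96e-06). Neither ligand overlapped between the groups. Gdf15, a stress-induced hormone of the same family, was 3.23-fold higher (1.69 ± 0.16). The count of lower members was 3 without RVF 13 and 2 in the fit to all 16 arrays. Other growth factor genes were higher in 11 of 29 cases and lower in 6, with a median of 0.08. Igfbp6, a binding protein of insulin-like growth factors, was 3.06-fold higher (1.62 ± 0.10, adjusted p = 3.14e-07), and the hormone gene Fgf23 was 2.61-fold higher, at 6.08, 5.07, 5.24 and 4.90 in RVF and 3.56 to 4.43 in CON (1.38 ± 0.19, adjusted p = 0.000117). Erbb4, the neuregulin receptor of heart muscle, was at 6.03, 6.10, 6.04 and 6.20 in RVF and at 7.03 to 7.41 in CON (median 7.23), 2.24-fold lower (-1.16 ± 0.08, adjusted p = 5.88e-07). Fgf13, which binds sodium channels inside the cell, was 1.56-fold lower.

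Angiogenic ligands and receptors were higher in 7 of 21 cases and lower in 3, with a median of 0.15 (3 higher in the fit to all 16 arrays, and 5 lower after centring). Angpt1, which steadies vessels through the receptor Tek, was at 6.04, 6.40, 6.59 and 6.10 in RVF and at 8.19 to 8.99 in CON (median 8.64), 5.03-fold lower (-2.33 ± 0.15, adjusted p = 4.40e-07). Apelin (Apln) was 1.59-fold lower, and Vegfd and its receptor Flt4, genes of lymphatic growth, were 2.22-fold and 1.68-fold higher. Vegfa had -0.14 ± 0.09 and Hif1a -0.12 ± 0.07, and neither passed (adjusted p = 0.293 and 0.256). Renin-angiotensin, endothelin and nitric oxide genes had 3 of 18 higher and 1 lower, close to the shares over all genes. The higher genes were endothelin (Edn1), at 6.48, 6.42, 6.36 and 6.40 in RVF and at 5.00 to 5.99 in CON (median 5.40), 1.95-fold higher (0.96 ± 0.15, adjusted p = 0.000367), the angiotensin-converting enzyme Ace (1.59-fold) and the glucocorticoid-forming Hsd11b1 (1.51-fold). The mineralocorticoid receptor Nr3c2 was 1.33-fold lower. Wnt signalling had 5 of 27 higher (18.5%, beside 14.1% of all genes) and 3 lower (11.1%, beside 11.7%). For 16 of the 27 both group means lay under 5.57, the median level of all genes. Fzd2 was 2.25-fold and Ror1 1.53-fold higher. The ligand Wnt5a was at 5.23, 5.34, 5.41 and 5.23 in RVF and at 6.30 to 6.82 in CON (median 6.42), 2.22-fold lower without overlap (-1.15 ± 0.09, adjusted p = 1.63e-06), and the inhibitor Sfrp5 was 1.59-fold lower.

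Fibroblast markers were higher in 11 of 16 cases and lower in 0, with a median of 0.41. Their summed linear intensity was 14241 to 16338 in CON and 17281 to 19215 in RVF. Thy1, a surface glycoprotein of fibroblasts, was at 7.10, 6.92, 7.10 and 7.28 in RVF and at 4.99 to 5.70 in CON (median 5.45), 3.30-fold higher (1.72 ± 0.13, adjusted p = 7.39e-07). Pi16 was 3.18-fold higher, S100a4 2.55-fold and Cthrc1, found in activated fibroblasts, 2.07-fold. The general fibroblast markers Pdgfra (-0.13), Tcf21 (-0.10), Dcn (0.04) and Ddr2 (0.09) did not pass, as seen after their values were known. Smooth muscle and pericyte markers had 3 of 12 higher and 0 lower (Mcam, Pdgfrb and Cspg4, 1.65-fold, 1.52-fold and 1.36-fold). Of 15 endothelial markers 0 were called by limma (4 higher at an unadjusted p under 0.05), with a median of 0.10. When only genes at or above the median level were tested, 3 were higher, and without RVF 14 it was 2. Tie1 had 0.17 ± 0.06 (adjusted p = 0.0545) and Vwf 0.33 ± 0.12 (adjusted p = 0.0667). How much of the matrix changes came from a changed number of fibroblasts was not tested.

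Macrophage and monocyte markers were higher in 17 of 20 cases and lower in 0, with a median of 0.80 (11 higher in the fit to all 16 arrays). Their summed linear intensity was 1965 to 2739 in CON and 3217 to 4414 in RVF, without overlap. Adgre1, the F4/80 antigen, was at 7.05, 7.02, 6.96 and 6.93 in RVF and at 5.86 to 6.12 in CON (median 5.92), 2.05-fold higher (1.04 ± 0.07, adjusted p = 4.01e-07). The Fc receptor Fcgr1a was 2.22-fold higher, Ly86 2.07-fold, and the lysosomal Cd68 1.91-fold (adjusted p = 3.83e-05, but 0.122 in the fit to all 16 arrays). Ccr2, the receptor of inflammatory monocytes, had -0.02 and Cd163 had 0.23, and neither passed, as seen after their values were known. Whether the macrophage share moved other gene groups was not tested.

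Lymphocyte and natural killer markers had 5 of 17 higher (29.4%, beside 14.1% of all genes) and 2 lower (11.8%, beside 11.7%). In the fit to all 16 arrays 4 were higher and 1 lower. Of the 17 markers 15 were dim, meaning that both group means lay under 5.57. Il7r was 2.03-fold higher (1.02 ± 0.12), Cd4 1.65-fold (with 0.094 at its second, dim probe set) and Cd3g 1.47-fold (adjusted p = 0.00685, but 0.0886 in the fit to all 16 arrays), while the killer cell receptor Klrd1 was 1.79-fold lower (-0.84 ± 0.19). Neutrophil and mast cell markers had 1 of 17 higher, Cpa3 (0.60 ± 0.21, adjusted p = 0.0479), a call that ended in 13 of the alternatives. Among these 17 markers 13 were dim. Interleukin, chemokine and receptor genes were higher in 10 of 28 cases and lower in 0, with a median of 0.29 (6 higher in the fit to all 16 arrays). Tnfrsf12a, the receptor of the cytokine TWEAK, was at 8.28, 8.13, 7.87 and 7.82 in RVF and at 5.93 to 6.75 in CON (median 6.18), 3.33-fold higher (1.74 ± 0.15, adjusted p = 2.58e-06). The oncostatin M receptor Osmr was 1.89-fold higher, Il18 1.88-fold and the transcription factor Stat3 1.29-fold. Interferon and MHC class II genes were higher in 10 of 20 cases and lower in 0, with a median of 0.44. The class II genes RT1-DMa (1.97-fold), RT1-Bb (1.66-fold) and RT1-Da (1.62-fold) were higher, and the call of RT1-Da ended in the fit to all 16 arrays (adjusted p = 0.0505). Isg15, an interferon-induced modifier, was 1.88-fold higher with 3 of 4 arrays above CON. Among the 10 members that did not pass were Ifit1 (-1.06), Ifit3 (0.60), Irf7 (0.23), Cd74 (0.15) and RT1-DMb (-0.02), named after their values were seen. Complement and coagulation genes had 6 of 19 higher (31.6%, beside 14.1% of all genes) and 2 lower (10.5%, beside 11.7%). Serping1, the C1 inhibitor, was 1.81-fold higher, and C1r and C1s of the first complement complex were 1.62-fold and 1.75-fold higher. Tfpi, the inhibitor of tissue factor, was 1.53-fold lower. The other lower member was tissue factor itself (F3, -0.59), named after its value was seen.

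Cell cycle genes were higher in 23 of 30 cases (76.7%, beside 14.1% of all genes) and lower in 1, with a median of 0.78. Here 18 of the 30 were dim, a rule that looks at the higher group mean. A stricter filter asks that the mean over the 11 arrays reach the median level. It kept 8 members, of which 5 were higher and 1 lower. In the fit to all 16 arrays 11 were higher. Ccnd2, the cyclin that drives entry into the cycle, was at 11.52, 11.34, 11.38 and 11.18 in RVF and at 10.12 to 10.50 in CON (median 10.34), 2.08-fold higher without overlap (1.06 ± 0.09, adjusted p = 2.13e-06). The spindle protein Tpx2 was at 5.66, 5.70, 5.47 and 5.63 in RVF and at 4.31 to 4.68 in CON (median 4.43), 2.22-fold higher (1.15 ± 0.08, adjusted p = 7.55e-07). Rrm2, which makes building blocks of DNA, was 2.63-fold higher (1.28 at its second probe set), and the mitotic kinesin Kif20a 2.00-fold (adjusted p = 1.22e-06, but 0.0694 in the fit to all 16 arrays). The proliferation marker Mki67 was higher by 1.40 and Pcna did not pass (0.09), both named after their values were seen. The list also holds inhibitors of the cycle. Of these, Cdkn1a (0.85) and Cdkn2c (0.70) were counted as higher, also under the stricter filter. Cdkn2b (0.23) and Cdkn2a (-0.10) did not pass, and these inhibitors too were named after their values were seen. In which cells these genes were expressed was not tested.

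Cytoskeleton and tubulin genes were higher in 18 of 25 cases and lower in 1, with a median of 0.43 (10 higher in the fit to all 16 arrays). The microtubule protein Map1b was at 9.23, 9.71, 9.62 and 9.36 in RVF and at 8.21 to 8.51 in CON (median 8.27), 2.22-fold higher (1.15 ± 0.10, adjusted p = 1.87e-06). The intermediate filament synemin (Synm) was 2.16-fold and the non-muscle actinin Actn1 1.57-fold higher. The lower member, the muscle tubulin Tuba8, was at 7.89, 8.39, 8.35 and 8.46 in RVF and at 9.10 to 9.46 in CON (median 9.25), 2.00-fold lower (-1.0 ± 0.10, adjusted p = 1.03e-05). Translation and ribosome genes had 5 of 26 higher (19.2%, beside 14.1% of all genes) and 1 lower (3.85%, beside 11.7%). Higher with the smallest p were Rpl3 (1.69-fold), Eef1a1 (1.33-fold) and Rplp0 (1.23-fold). The higher count was 3 without CON 5 or RVF 15 and after centring. Eif3a had 0.29 ± 0.09 (adjusted p = 0.0282), a call that ended in 6 alternatives. Endoplasmic reticulum stress genes had 4 of 24 higher and 2 lower, near the shares over all genes. After centring it was 1 higher and 5 lower, the higher count was 2 without CON 2, 3 or 5 or RVF 13, 14 or 16, and the lower count was 4 without RVF 13. Ddit3, a transcription factor of that response, was 1.5-fold higher, Atf4 1.23-fold higher (adjusted p = 0.00762, but 0.0501 after centring), and the chaperones Dnajb9 and Hyou1 were 1.55-fold and 1.28-fold lower, the second call ending in the fit to all 16 arrays (0.0520). Serine, one-carbon and polyamine genes had 5 of 17 higher and 3 lower, with Mthfd2 (1.78-fold) and Odc1 (1.57-fold) higher, Psph 1.24-fold higher and Amd1 1.68-fold lower.

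Genes of muscle atrophy and protein breakdown were divided. Of 24 members 7 were higher (29.2%, beside 14.1% of all genes) and 6 lower (25%, beside 11.7%). After centring 6 were higher and 9 lower. The lysosomal proteases Ctsk (2.14-fold), Ctss (1.92-fold) and Ctsl (1.42-fold) were higher. Trim63, the muscle ubiquitin ligase MuRF1, was at 8.38, 8.30, 8.33 and 8.23 in RVF and at 8.79 to 8.98 in CON (median 8.89), 1.49-fold lower (-0.57 ± 0.07, adjusted p = 2.17e-05). Of the other muscle ligases Fbxo30 was lower (-0.30). Fbxo32 (-0.13), Fbxo40 (-0.24), Trim54 (0.16) and Trim55 (-0.06) did not pass. These others were named after their values were seen. Oxidative stress and detoxification genes were higher in 13 of 31 cases and lower in 5 (8 after centring), with a median of 0.13. The oxidase subunit Cybb of phagocytes was at 8.79, 8.91, 8.73 and 8.86 in RVF and at 7.66 to 8.06 in CON (median 7.85), 2.00-fold higher (1.00 ± 0.08, adjusted p = 1.69e-06). Its relative Nox4 was 1.92-fold higher (0.94 ± 0.15), the secreted glutathione peroxidase Gpx3 1.94-fold and the monoamine oxidase Maoa 1.84-fold. Cyp2e1, a drug-metabolising cytochrome, was at 3.91, 4.06, 4.09 and 4.28 in RVF and at 5.58 to 7.30 in CON (median 6.68), 5.29-fold lower (-2.40 ± 0.25, adjusted p = 1.15e-05), but had -0.22 at its second probe set, which was dim (mean 4.05).

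Of the remaining genes with the largest changes, Ncam1, a cell adhesion molecule, was at 10.22, 10.39, 10.28 and 9.62 in RVF and at 6.52 to 8.12 in CON (median 7.17), 7.44-fold higher (2.90 ± 0.24, adjusted p = 1.58e-06). Lsamp, an adhesion molecule of the IgLON family, was at 5.35, 6.70, 6.62 and 6.54 in RVF and at 8.84 to 8.97 in CON (median 8.94), 6.15-fold lower (-2.62 ± 0.19, adjusted p = 7.89e-07). RVF 13 stood apart below the other RVF arrays for Lsamp, and CON was tight. Gabrb2, a GABA receptor subunit, was 4.92-fold lower (-2.30 ± 0.25), and the guidance ligand Slit3 was 2.43-fold higher (1.28 ± 0.10). Across neural adhesion and guidance genes 5 of 25 were higher and 2 lower (4 lower without CON 4, 5 after centring), with a median of -0.01. As shares of the list these were 20% higher and 8% lower, beside 14.1% and 11.7% of all genes. Tceal7 was at 8.09, 7.99, 7.40 and 7.03 in RVF and at 3.75 to 6.20 in CON (median 4.35), 8.87-fold higher (3.15 ± 0.37, adjusted p = 2.83e-05), with CON 4 the highest control. Ddit4l, an inhibitor of mTOR signalling, was at 5.27, 5.31, 5.93 and 5.09 in RVF and at 7.43 to 8.16 in CON (median 7.87), 5.47-fold lower (-2.45 ± 0.15, adjusted p = 3.14e-07). Dhrs7c, an enzyme of the sarcoplasmic reticulum, was at 4.43, 5.17, 5.43 and 5.63 in RVF and at 7.25 to 7.85 in CON (median 7.60), 5.23-fold lower (-2.39 ± 0.18, adjusted p = 9.13e-07). In these genes too the groups did not overlap. Atp6ap1l and the secreted protein myocilin (Myoc) were 4.26-fold and 4.22-fold lower.

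Cardiac transcription factors had 6 of 28 higher (21.4%, beside 14.1% of all genes) and 4 lower (14.3%, beside 11.7%), with a median of -0.02. Runx1, best known from blood formation, was at 6.69, 6.73, 6.71 and 6.86 in RVF and at 5.42 to 5.86 in CON (median 5.66), 2.14-fold higher (1.10 ± 0.08, adjusted p = 7.39e-07), and Sox4 was 2.13-fold higher. Tbx5, a factor of heart development, was 1.59-fold lower (-0.67 ± 0.09) and Meis1 1.45-fold lower. Immediate-early genes had 5 of 19 higher (3 without RVF 14 or RVF 15 and after centring) and 0 lower, with Myc 1.83-fold, Maff 1.41-fold and Jund 1.23-fold higher, the call of Jund ending after centring (adjusted p = 0.0526) and that of Ier3 (0.67 ± 0.20) without RVF 13, 14 or 15. Glucocorticoid targets had 4 of 13 higher and 1 lower, with Lcn2 1.70-fold higher. Sgk1 (0.31 ± 0.10, adjusted p = 0.0261) and Fkbp5 (0.31 ± 0.11, adjusted p = 0.0477) passed narrowly, and their calls ended in 5 and 15 alternatives. In the fit to all 16 arrays and after centring 1 of these targets was higher, and without RVF 16 or CON 1, 2, 4 or 7 it was 2. Of 15 circadian clock genes 0 were called by limma (1 lower at an unadjusted p under 0.05, and 1 lower after centring), and the smallest p belonged to Cry1 (-0.32 ± 0.15, adjusted p = 0.132).

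Genes of the atrial wall were checked because tissue of the neighbouring atrium could be sampled with the ventricle. Of 9 measured members 2 were higher (Nppa and Pam) and 3 lower (Tbx5, Sln and Myl7), with 1 lower without RVF 14 or RVF 16. Myl7, the atrial myosin light chain, was at 7.26, 5.86, 6.53 and 5.67 in RVF and at 6.22 to 10.79 in CON (median 8.43). Sln, sarcolipin, a regulator of the calcium pump in the atrium, was at 5.48, 5.80, 7.05 and 6.03 in RVF and at 6.45 to 10.03 in CON (median 8.08). The groups overlapped for both genes, with 2 and 3 of 4 RVF arrays below all CON arrays. Myl7 had -1.93 ± 0.65 (adjusted p = 0.0420) and Sln -1.86 ± 0.55 (adjusted p = 0.0227), and these calls ended in 9 and 5 alternatives, among them leaving out RVF 14 or RVF 16. CON 5 was the highest control for Myl7, CON 7 for Sln and CON 4 for Nppa. Pam, which amidates peptides and is a major protein of atrial granules, was 1.40-fold higher (0.48 ± 0.07). The share of atrial tissue in each sample was not tested.

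**Figure D4:**
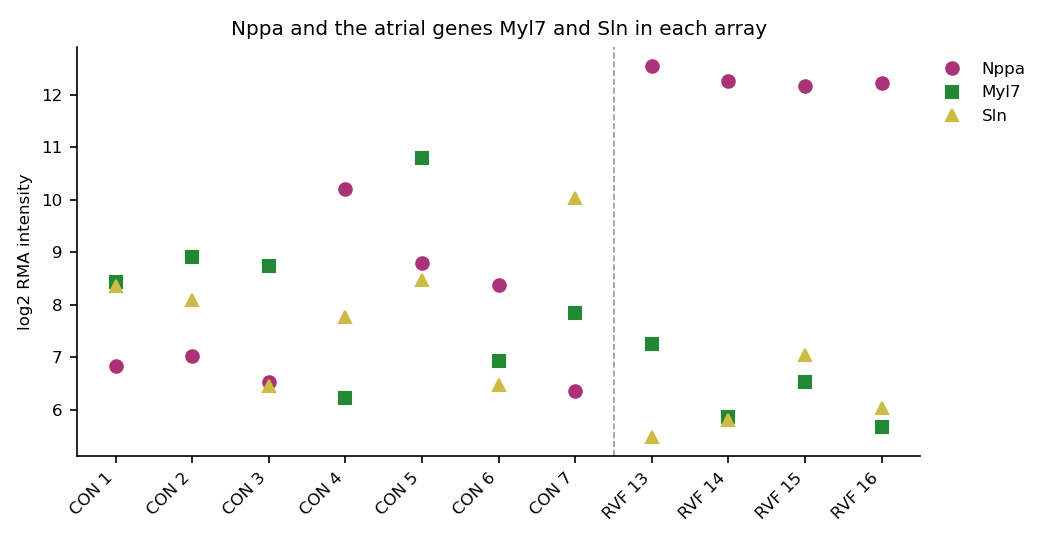
Log2 intensity (vertical axis) of Nppa, Myl7 and Sln in each of the 7 CON and 4 RVF arrays (horizontal axis). Nppa is above 12 in all RVF arrays, while Myl7 and Sln vary by several units among CON arrays, and the highest control differs between the 3 genes.

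Markers of heart muscle and of other cells were set beside these results. The 16 markers of heart muscle cells had 1 higher and 6 lower, with a median of -0.11, but 1 lower in the fit to all 16 arrays. Their summed linear intensity was 65359 to 69279 in CON and 59185 to 62515 in RVF. Red cell genes had 0 of 6 called by limma (0 at an unadjusted p under 0.05, and 1 lower without RVF 13), and RVF 13 was highest for Alas2 (8.12 against 6.17 to 7.06 in CON) and Hbb (11.94 against 10.76 to 11.12). The summed intensity of red cell genes was 1940 to 2476 in CON and 1901 to 4395 in RVF. Adipocyte markers had 0 of 12 higher and 1 lower, the lipase Lpl (-0.53 ± 0.06), which heart muscle also expresses, and 3 were lower after centring. Skeletal muscle markers had 2 of 10 higher (20%, beside 14.1% of all genes), the light chain Myl1 (3.06-fold, 1.61 ± 0.16) and Tnnt3 (0.38 ± 0.12, adjusted p = 0.0307, a call that ended in 9 alternatives). The creatine kinase Ckm, which heart muscle also expresses, was lower (-0.40), and 7 of the 10 were dim. Nerve and Schwann cell markers had 4 of 14 higher, with Uchl1 2.97-fold, Prph 1.78-fold, Dbh 1.51-fold and Pmp22 1.49-fold higher and 11 of the 14 dim. Lung epithelium markers had 0 of 6 higher and 1 lower, Sftpc at the background level (-0.32 ± 0.10, adjusted p = 0.0229), and the call ended in 6 alternatives. Their part in the differences above was not tested.

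RVF was last set against RVF+, whose own comparison with CON uses the same CON arrays. In the fit to all 16 arrays 0 of 17245 genes (0%) were called by limma, 1242 had an unadjusted p under 0.05, and the lowest adjusted p was 0.289. Over the alternatives the lowest adjusted p ran from 0.0376 to 0.979. Without RVF+ 12 limma called 3 genes, all lower in RVF (adjusted p = 0.0376 each). They were the angiotensin-converting enzyme Ace (-0.95), the stress-responsive Ndrg1 (-0.86) and the nucleoside transporter Slc28a2 (-0.74), which with all arrays had -0.70, -0.73 and -0.65 (adjusted p = 0.468, 0.382 and 0.382). The genes higher in RVF with the smallest p included Cacna1a, a P/Q-type calcium channel, at 6.44, 6.27, 6.05 and 6.32 in RVF, 5.18 to 5.85 in RVF+ and 5.02 to 5.64 in CON. Its difference from RVF+ was 0.75 (95% interval 0.47 to 1.03, not adjusted, adjusted p = 0.289), and from CON 1.01 ± 0.11. Myocd, a coactivator of serum response factor, was at 8.96, 9.08, 9.06 and 8.78 in RVF, 8.14 to 8.63 in RVF+ and 8.68 to 8.95 in CON. It differed from RVF+ by 0.59 (0.36 to 0.81, adjusted p = 0.289) and did not pass against CON (0.16 ± 0.08, adjusted p = 0.136). Nmnat2 (0.62), Synpo2l (0.59) and Samd4a (0.47) followed. Among genes lower in RVF, Fkbp5, a target of glucocorticoids, was at 6.96, 6.94, 6.62 and 7.15 in RVF, 7.39 to 8.68 in RVF+ and 6.31 to 6.85 in CON. Its difference from RVF+ was -0.99 (-1.42 to -0.56, adjusted p = 0.382). Shroom2 (-1.06) and Paep (-0.64) were also among the smallest p. Intervals were also taken for genes described above. The difference of RVF from RVF+ was 0.31 for Nppa (-0.90 to 1.52), 0.56 for Myh6 (-0.09 to 1.21), -0.12 for Postn (-0.93 to 0.69), 0.06 for Hadhb (-0.20 to 0.32) and 0.54 for Adra1b (0.25 to 0.84, adjusted p = 0.403). A p above the threshold does not show that the groups were alike.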

How the data were processed

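RNA of 16 right ventricular samples was measured on expression arrays, from 500 ng of total RNA per sample with a biotin-labelled sense-strand kit, per the labels' protocols. The values are intensity values that the authors deposited on a linear scale after RMA, per the submitters' processing notes. RMA corrects background, makes the arrays' distributions alike and sums probes into probe sets, so shifts shared by all genes are reduced. A software version, an array type and a genome build were not given in the sources used here. Deposited values ran from 2.20 to 10294 with array medians of 27.1 to 29.3. Precision is limited by how many arrays there are.

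Log2 was taken of the authors' values. Of 29214 probe sets, 18644 had exactly 1 symbol, 962 had several and 9608 were not listed in the platform annotation. The probe set with the highest mean over the 16 arrays stood for each of 17245 genes, 879 of which had more than 1. Groups were compared with limma 3.58.1 in R 4.3.3 (lmFit and eBayes, no covariate) on the 7 CON and 4 RVF arrays, with Benjamini-Hochberg adjustment over all genes and a threshold of 0.05. RVF against RVF+ used a fit of 3 groups to all 16 arrays. The procedure was tested on simulated data.

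Genes named were the 12 largest rises and 12 largest falls among called genes with a mean of at least 5.57, the median level over genes, in the higher group, the 4 smallest p-values of each of 50 gene lists, a short list of genes of interest, and the 5 smallest p-values in each direction against RVF+, 227 genes in all. Other genes were named after their values were seen. Members and lists were chosen with earlier results of these data known. Promoters came from RefSeq (GRCr8). Alternatives were quantile normalization, median centring, level filters, other probe set choices, all 16 arrays in the fit, trend and robust moderation, array weights, a minimum change of 1.5-fold, and each array left out in turn. Leaving out CON 4 and RVF 13 together was added after seeing the data. The labels name no batch, date or pairing.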

Additional observations from a re-analysis of the deposited data

Results flagged for a closer look

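In 25 of 454 groups of values of the named genes, 1 array stood apart from the rest of its group, where chance at 1 in 20 gives 22.7. By array these were RVF 13 (7), CON 4 (6), CON 1 and CON 2 (3 each), RVF 14 (2), CON 5, CON 7, RVF 15 and RVF 16 (1 each), with 0 in CON 3 and CON 6. All values here are log2 intensity, and each array named lay farther from its group than the spread of the other arrays.

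RVF 13 was highest for Akip1 (9.38 against 8.98 to 8.99 in the other RVF arrays), Tpm3 (9.69 against 9.51 to 9.53) and Synm (6.92 against 6.58 to 6.63). It was lowest for Lsamp (5.35 against 6.54 to 6.70), Hrc (8.27 against 8.75 to 8.77), Fcer1a (3.56 against 3.87 to 3.91) and RT1-Da (8.33 against 8.70 to 8.73). RVF 14 was lowest for Slc2a4 (9.19) and Dnajb9 (7.67), RVF 15 highest for Sftpc (3.38) and RVF 16 lowest for Cspg4 (7.35).

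CON 4 was highest for Tceal7 (6.20 against 3.75 to 4.61 in the other CON arrays), Xirp2 (10.80 against 10.00 to 10.31), Lpl (12.18) and Il18 (4.50 against 4.10 to 4.20). It was lowest for Scn4b (8.06 against 8.62 to 8.80) and Ckm (11.94). CON 1 was lowest for Tbx5 (8.16), Vegfd (6.76) and Ryr2 (11.02). CON 2 was highest for Adcy1 (7.56) and Wnt5a (6.82) and lowest for Cpa3 (4.56). CON 5 was highest for Mmrn2 (7.14), and CON 7 lowest for Myl1 (5.17).

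Among the 10570 probe sets without exactly 1 symbol, which the comparisons do not use, 872 were called by limma (8.25%), 412 higher and 460 lower in RVF.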

How the results depend on the processing

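No call took the opposite direction under any alternative. Leaving out single arrays gave 3757 (without RVF 13) to 4504 (without CON 4) called genes, 2002 to 2436 higher and 1727 to 2068 lower, and 200 to 232 higher and 106 to 135 lower by at least 2-fold. The alternatives that follow moved a count by more than 1.5 times. Median centring gave 3263 lower genes. Testing only genes at or above the median level gave 140 higher by at least 2-fold, with fewer genes tested. The fit to all 16 arrays gave 2957 called genes, 1528 of them higher, and kept 66.1% of the calls, and the cause was not tested. A test against a 1.5-fold minimum gave 305 genes, 180 higher and 125 lower, a stricter question by construction. Of the 227 named genes, 22 lost their call with all 16 arrays, 116 with the 1.5-fold minimum, 8 with centring (6 gained one) and 9 without CON 4 and RVF 13 (2 gained one). The sign of 4 genes without a call turned: Ahsp (-0.55 without RVF 13 to 0.023 without RVF 16), Ucp1 (-0.0094 with centring), Sftpa1 (0.013 with quantile normalization, and -0.058 without RVF 15 to 0.00044 without RVF 16) and Npas2 (0.036 without CON 4 and RVF 13), and the cause was not tested. RVF against RVF+ gave 0 to 3 called genes, 3 only without RVF+ 12. No paired analysis was possible because the groups share no replicate number. Values near the background of the array, as for most lymphocyte, lung and cell cycle genes, have the least signal behind them.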
